A study of Schizosaccharomyces pombe with 4 samples.

Results

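The *mug* (meiotically upregulated gene) family of *S. pombe* was described here in the nascent and total RNA of growing *exo2*Δ cells. Its members are all protein-coding entries of the table named mug plus a number. This gave 104 genes out of 5129 protein-coding genes. The name records only that the transcript was found to rise during meiosis, so the members share no protein family. RefSeq gives a product for all 104 of them, and 13 are listed there under another symbol, such as *igo1* for *mug134* and *snd2* for *mug69*.

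Fission yeast cells that grow on a rich source of nitrogen divide by mitosis, and keep genes of meiosis silent in more than one way. Transcription factors that act in meiosis, such as Ste11 and then Mei4, are absent or inactive during growth. In addition, the RNA-binding protein Mmi1 recognises repeats of a short motif, UNAAAC, in some meiotic transcripts that are still made, and directs these RNAs to the nuclear exosome for degradation. Antisense non-coding RNAs lie opposite a part of the meiotic genes. Xrn1-sensitive unstable transcripts (XUTs) are long non-coding RNAs that the cytoplasmic exonuclease Exo2 degrades.

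NET-Seq captures the RNA held by RNAPII. All libraries come from 1 genotype, YAM2507, which lacks *exo2* and has a Flag-tagged Rpb3 subunit of RNAPII, so the comparison is between kinds of RNA and not between strains. For 2 biological replicates there is an IP library, made from RNA that was purified with Flag-tagged Rpb3, and an input library, made from the same biological sample without that purification. The WT libraries were not analysed here. The IP libraries hold 3338808 and 6962801 reads on annotated features and the input libraries 10172688 and 9114952 reads. tRNA genes take 73.9% and 75% of the input reads against 7.18% and 6.80% of the IP reads, so IP over input is given after each library was scaled to an equal median protein-coding gene. A log2 IP over input of 0 thus means the ratio of the median IP reads to the median input reads of protein-coding genes. For ratios this reference is called the median gene below. A value below 0 means less nascent than total RNA by comparison with it. The median of the log2 values of all protein-coding genes is -0.08 and not 0. The deleted main coding exon of *exo2* has an IP density of 0.0113 and 0.0104 deposited reads per nt, and the rest of the gene 0.159 and 0.143. Genes that mark growing cells lie between the 58.2nd and 100th percentile of protein-coding genes by IP density. Those that mark cells in meiosis lie between the 2.85th and 25.9th.

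A group of 4 *mug* genes with a high IP over input carry several copies of the motif of Mmi1 close together. Their nascent RNA is high only beside their low total RNA. *mug8*, *mug10* and *mug45* rank at percentiles 44.1, 26.2 and 14.4 by IP density, and at 7.04, 4.99 and 4.7 by input density. The densest stretches of coding sequence of the 4 genes are shown first. The hexamer TNAAAC, the DNA letters of UNAAAC, was searched on the RNA strand of the coding sequence, and each line gives the 200 nt with the most copies. Copies are in capitals. The sequences are from RefSeq, build ASM294v3, written in the direction of the RNA: *mug8* at chrI:2446802-2447001 on the plus strand, *mug10* at chrI:1371073-1371272 on the plus strand, *mug4* at chrIII:806948-807147 on the minus strand and *mug45* at chrII:3638692-3638891 on the plus strand.
mug8: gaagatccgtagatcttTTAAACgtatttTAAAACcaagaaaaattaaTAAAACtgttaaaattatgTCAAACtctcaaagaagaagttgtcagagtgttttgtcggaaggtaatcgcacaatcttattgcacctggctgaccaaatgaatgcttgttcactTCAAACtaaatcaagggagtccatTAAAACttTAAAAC
mug10: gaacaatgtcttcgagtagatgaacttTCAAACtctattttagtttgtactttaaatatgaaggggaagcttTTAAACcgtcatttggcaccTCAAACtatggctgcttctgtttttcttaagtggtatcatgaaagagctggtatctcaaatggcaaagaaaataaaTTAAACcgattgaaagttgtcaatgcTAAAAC
mug4: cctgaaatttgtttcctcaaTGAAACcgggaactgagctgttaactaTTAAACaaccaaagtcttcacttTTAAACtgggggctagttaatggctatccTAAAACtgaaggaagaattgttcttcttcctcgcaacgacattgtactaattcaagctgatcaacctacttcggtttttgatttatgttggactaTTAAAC
mug45: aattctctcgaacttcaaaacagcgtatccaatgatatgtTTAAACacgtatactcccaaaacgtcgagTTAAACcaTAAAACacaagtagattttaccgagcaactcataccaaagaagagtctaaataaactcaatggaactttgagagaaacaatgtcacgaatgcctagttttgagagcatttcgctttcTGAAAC
These stretches hold 7 copies in *mug8*, 5 each in *mug10* and *mug4*, and 4 in *mug45*. The second base of the hexamer varies between the copies of each gene.

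The *mug* genes were transcribed at a low but in most cases countable level. The median *mug* gene was covered by 57 and 126 IP reads and by 25 and 22.5 input reads, against 172 and 356 IP reads and 102 and 78 input reads for all protein-coding genes. In log2 IP density the median *mug* gene lies below the median protein-coding gene by 1.32 and 1.30 in replicates 1 and 2, which is 2.48-fold lower. In the input the differences are -1.51 and -1.54, or 2.87-fold lower. Of the 104 genes, 41 (39.4%) fall in the lowest 10% of protein-coding genes by IP density, 22 lie above the median gene and 1 lies in the highest 10%. Both differences of medians are far larger than the spread between the replicates, whose SD is 0.0153 for the IP and 0.0199 for the input (n = 2). Fewer cells that transcribe a gene and less transcription per cell cannot be told apart in these libraries.

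At the top, *mug134* (*igo1*), an endosulfine that inhibits a protein phosphatase, had 479 and 1113 reads in the IP and 242 and 230 in the input. Its IP density of 0.390 ± 0.0266 (SD, n = 2) deposited reads per nt is at percentile 91.9. It was followed by *mug33* at 0.236 ± 0.0138, *mug113* at 0.197 ± 0.0144, the oxidoreductase gene *mug72* at 0.178 ± 0.0140, *mug64*, which codes for a BAR domain protein, at 0.165 ± 0.00901, and *mug69* (*snd2*) at 0.163 ± 0.0115. The last 3 of these densities differ by about as much as their replicates do. Of these 6 genes, *mug64* alone was called in the comparison of IP and input, although edgeR also calls *mug72* and *mug69*.

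At the other end, 12 *mug* genes (11.5%, against 3.80% of all protein-coding genes) have fewer than 10 reads in each of the IP libraries. *mug112* had 0 and 1 reads in the IP and none in the input, and was the only member that did not enter the test. *mug62*, annotated as an AMP-binding enzyme, had 0 and 3 IP reads. *mug93*, with TPR repeats, had 1 and 2 IP reads, *mug131* had 1 and 3, and *mug137*, a BAR adaptor protein gene, had 1 and 4, and all 3 have no input read. *mug27*, which codes for the meiotic kinase Slk1, had 0 and 10 IP reads and 4 and 5 input reads. At this depth the order among these 6 genes was not detectable.

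**Figure D1:**
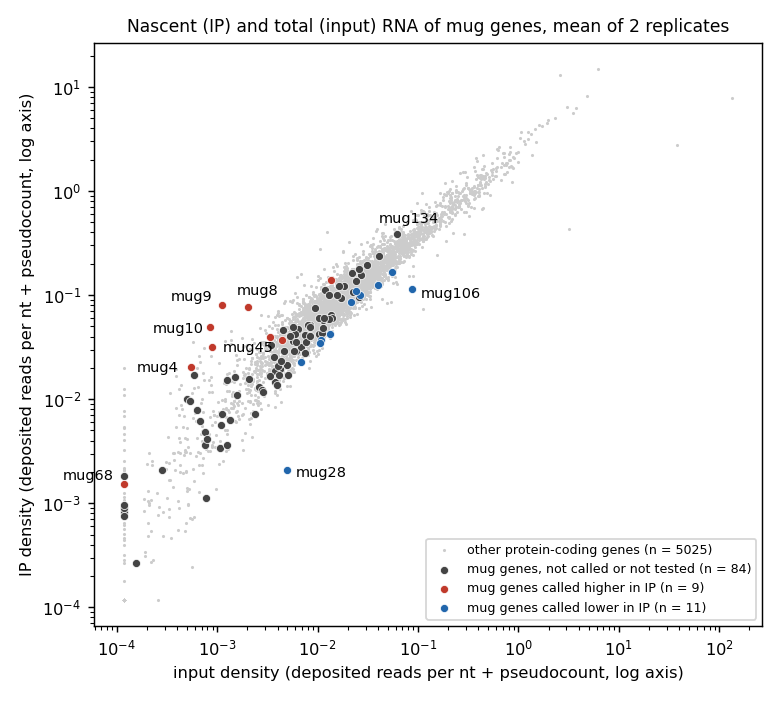
Input density (x axis) and IP density (y axis) of each protein-coding gene as deposited reads per nt, mean of 2 replicates, on log axes after adding the pseudocount of 0.000118. Grey points are the other protein-coding genes, and coloured points are *mug* genes called higher (red, 9) or lower (blue, 11) in the IP. *mug9*, *mug10*, *mug8*, *mug45* and *mug4* stand above the cloud and *mug28* and *mug106* below it.

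As a group, *mug* genes had a median IP over input close to that of all protein-coding genes, with a wider spread. The quartiles of the log2 value were -0.32 and 0.54 for *mug* genes and -0.37 and 0.25 for all protein-coding genes. The median log2 IP over input was 0.06 for *mug* genes and -0.08 for all 5129 protein-coding genes, and the difference was 0.12 in each replicate. In the limma test with Benjamini-Hochberg adjustment over all 8651 features, 9 of 103 *mug* genes (8.74%) were higher in the IP, where the background is 7.71% of protein-coding genes, and 11 (10.7%) were lower, where it is 19.7%. Over all features the shares were 8.33% and 14.7%. edgeR on the recovered reads called 17 of 91 *mug* genes higher (18.7%, against 13.2% of protein-coding genes) and 10 lower (11%, against 21.8%). By both tools the share of lower calls was below that of protein-coding genes. In limma it was also low for XUTs (1.58%) and ncRNA genes (3.6%). The median *mug* gene had 25 and 22.5 input reads, against 102 and 78 for all protein-coding genes. The part that read depth has in these shares was not tested. The 9 genes differ in size of change, with 5 of them at a log2 value of 2.91 or more on inputs of 2 or more reads, and 3 between 0.58 and 1.12.

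*mug9* codes for a protein without an annotated function and had 55 and 116 reads in the IP but 2 and 2 in the input. By IP density it ranked near the middle of protein-coding genes, at percentile 47.4. With so few input reads the ratio is uncertain: relative to the median gene it was 16.3 in replicate 1 (95% counting interval 4.31 to 138) and 12.7 in replicate 2 (3.44 to 106). The fitted log2 value was 3.69 ± 0.380 (SE, limma adjusted p = 0.00252).

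*mug10* had 65 and 142 reads in the IP and 4 and 2 in the input. Its ratios were 9.64 (3.59 to 36.4) and 15.6 (4.23 to 130), with a fitted log2 value of 3.50 ± 0.369 (limma adjusted p = 0.00271). Both IP libraries stand far above both inputs in each of these genes.

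*mug4* had 64 and 138 reads in the IP and 4 and 4 in the input, and its log2 value was 3.00 ± 0.323 (limma adjusted p = 0.00284). It shares 45 nt with *ipi1* on the same strand, and *ipi1* itself has a log2 value of -0.34. *mug8*, the deepest of the group, had 177 and 427 IP reads and 21 and 8 input reads. Its ratios were 5 (3.17 to 8.28) and 11.7 (5.88 to 27.3), so the size of the change differed between replicates more than its direction, and the log2 value was 2.91 ± 0.348 (limma adjusted p = 0.00405).

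*mug45* had 91 and 150 reads in the IP and 10 and 2 in the input. The 2 inputs disagree in this gene, and the ratios were 5.4 (2.80 to 11.6) and 16.4 (4.47 to 137), with a log2 value of 3.15 ± 0.630 (limma adjusted p = 0.0222). Without the trend in limma its adjusted p was 0.0917.

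*mug68* was also called (limma adjusted p = 0.0402), but on 3 and 4 IP reads and none in the input. If each input held 3 reads, its ratios would be 0.593 and 0.292, so no fold is given, and the call was lost under 4 of 9 alternatives. The remaining genes moved less. *mug124* had 114 and 234 IP reads against 25 and 29 in the input (log2 1.12), *mug166* had 118 and 214 against 38 and 25 (log2 0.89), and *mug86*, an acetate transporter gene named after its values were seen, had 122 and 268 against 46 and 41 (log2 0.58). The call of *mug86* was lost without IP replicate 1 (limma adjusted p = 0.0701) or IP replicate 2 (0.133). When only reads on coding sequence were counted, all 9 genes kept a value above 0 in both replicates. In replicate 2 this value was small for *mug124* (0.097) and *mug86* (0.22), against 0.93 and 1.16 in replicate 1. Coding sequence makes up 15.5% of *mug124* and 26.9% of *mug86*, and *mug86* shares 561 nt with *mug116* on the same strand.

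**Figure D2:**
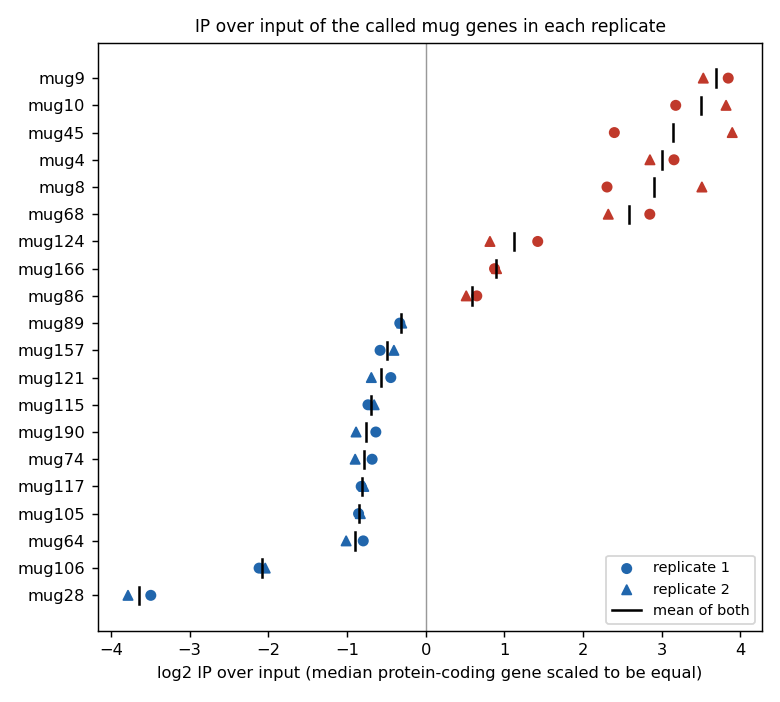
The log2 IP over input (x axis) of the 20 called *mug* genes in replicate 1 (circles) and replicate 2 (triangles), with the mean of both as a bar. The value 0 marks equal scaled reads in IP and input. The 5 uppermost genes lie between 2.31 and 3.90 in each replicate, the values of *mug68* rest on inputs without reads, and *mug28* and *mug106* lie at -2.04 or below.

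The 5 *mug* genes with the highest IP over input on inputs with reads each hold a cluster of the hexamer in their coding sequence. Over whole coding sequences a *mug* gene has a median of 1.79 copies per kb on the RNA strand, against 1.52 for all protein-coding genes, and 1.39 against 1.49 on the other strand. The median AT content of the coding sequence was 61.4% and 60.4%. Of the 4877 protein-coding genes with 200 nt of unbroken coding sequence, 56 (1.15%) have 4 or more copies within such a window, and 7 of these are *mug* genes.

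Of these 7 *mug* genes, 6 were called higher in the IP (*mug8*, *mug9*, *mug10*, *mug4*, *mug45* and *mug68*). Among all 56 genes, 20 (35.7%) were called higher, against 7.65% of the 4795 tested genes with 200 nt of unbroken coding sequence, whatever their number of copies. *mug8* was the only gene of the table with 7 copies in 200 nt. It has 13 copies over its whole coding sequence and 1 on the other strand, *mug9* has 8 and 0, and *mug10* has 5 and 1. The 7th gene, *mug37*, has 5 copies in a window, 9 and 24 reads in the IP and 2 and 2 in the input, and was not called (log2 1.30, limma adjusted p = 0.125).

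A cluster of copies did not go with a call in every gene. Of 14 *mug* genes with 3 or more copies in a window, 6 were called higher, 6 were not called, and *mug28* and *mug74*, with 3 copies each, were called lower. *mug124*, *mug166* and *mug86* were called higher with 0, 1 and 0 copies in their richest window. The motif was chosen with these values known, so the counts describe the genes and are no test, and whether Mmi1 acts on any of them was not tested.

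**Figure D3:**
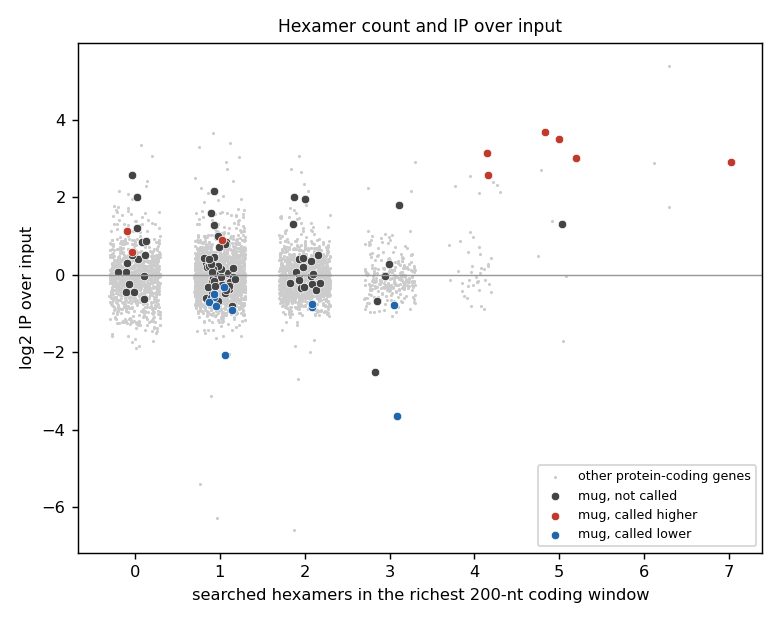
Copies of the hexamer in the richest 200 nt of coding sequence (x axis, points spread sideways at random) and log2 IP over input (y axis) of each tested protein-coding gene, with *mug* genes coloured by their call. Of the 7 *mug* genes at 4 or more copies, 6 are called higher. The 5 of them with input reads have log2 values between 2.91 and 3.69, and the value of *mug68* rests on inputs without reads.

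*mug28*, which codes for an RNA-binding protein needed to form spores, stood apart in the other direction. It had 3 and 10 reads in the IP but 23 and 33 in the input, and its ratio to the median gene was 0.0774 in replicate 1 (95% counting interval 0.0149 to 0.256) and 0.0664 in replicate 2 (0.0292 to 0.138). On the log2 scale the value was -3.64 ± 0.496, or 12.5-fold lower (limma adjusted p = 0.00638). The gene was called lower under each of the 14 alternatives, leaving out the deposited scale. Its reads all fall on the coding sequence, and no other annotated feature shares its strand. By IP density it ranked at percentile 3.08.

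*mug106* was lower by 2.08 ± 0.114 (limma adjusted p = 0.00044), with 129 and 310 IP reads and 333 and 280 input reads, but almost none of these reads lie on its coding sequence. Counted there alone, it had 3 and 4 IP reads and 0 and 4 input reads. Its annotated 3′ end shares 20 nt with *gpm1*, the gene of a glycolytic enzyme, which has 3729 and 7933 IP reads and 5281 and 3987 input reads and a log2 value of -1.23 itself. The share of the *mug106* reads that belong to *gpm1* was not tested. *mug115* is a similar case. It had 156 and 301 IP reads and 154 and 104 input reads, but on its coding sequence 7 and 1 in the IP and 1 and 1 in the input, and an unnamed non-coding transcription unit covers 2333 nt of the gene on the same strand with 139 and 266 IP reads. These 2 genes were the exceptions among the 11 lower genes, since the other 9 kept a value below 0 in both replicates on coding sequence alone.

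The other lower genes changed by less than 2-fold. *mug64* had 278 and 543 IP reads and 286 and 240 input reads (log2 -0.90 ± 0.0918, limma adjusted p = 0.00241), and *mug105*, a protease gene of the ubiquitin-fold modifier family, had 95 and 233 against 102 and 91 (log2 -0.84). *mug117* had 38 and 71 against 40 and 27 (log2 -0.80), and *mug74* had 44 and 78 against 42 and 32 (log2 -0.79). *mug190* (*tcb2*), a tricalbin that tethers the endoplasmic reticulum to the plasma membrane, had 102 and 222 against 94 and 90 (log2 -0.76). The 3 left, *mug121* (log2 -0.57), *mug157* (log2 -0.49) and *mug89* (log2 -0.32), were named after their values were seen. Some of these calls rested on 1 library. *mug117* was lost without IP replicate 1 (limma adjusted p = 0.0644), IP replicate 2 (0.129) or input replicate 1 (0.0546), *mug74* without IP replicate 2 (0.134), *mug157* without IP replicate 1 (0.133), *mug121* without input replicate 2 (0.0503), and *mug89* without IP replicate 1 (0.126), IP replicate 2 (0.201) or input replicate 1 (0.0999).

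Of the 9 *mug* genes picked for a known role, *mug28*, *mug105* and *mug190* were called lower, as given above, and the other 6 were not called. *mug20*, a component of the linear elements on which meiotic recombination takes place, had 14 and 35 IP reads and 5 and 3 input reads (log2 1.00 ± 0.433, limma adjusted p = 0.160). *mug24*, an RNA-binding protein gene, had 59 and 106 against 23 and 20, *mug30*, a ubiquitin ligase gene, had 75 and 151 against 40 and 41, and *mug161*, a CwfJ family splicing factor gene, had 187 and 411 against 127 and 94. *mug178*, a mitochondrial ribosomal protein gene, had 219 and 427 against 114 and 73, and *mug81* (*rqt2*), an RNA helicase gene, had 366 and 743 against 231 and 185. The log2 values of these 6 genes lie between -0.14 and 1.00.

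An antisense XUT, overlapping by 50 nt or more, lay opposite 28 of the 104 *mug* genes (26.9%) and opposite 21.2% of all protein-coding genes. For annotated ncRNA genes the counts were 24 (23.1%) and 19.5%. Either kind was found for 36 (34.6%) and 32.1%, and both kinds for 16 (15.4%) and 8.56%. Where both are annotated they mostly cover the same stretch on the same strand, so their reads are largely the same reads. The median log2 IP density of *mug* genes was -5.88 with and -4.64 without an antisense XUT, and over all protein-coding genes it was -4.03 and -3.39.

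The median gap in nascent signal between a gene and its antisense XUT was smaller for *mug* genes than for all protein-coding genes. Reads and densities of XUTs and ncRNA genes are over their whole length, with any part that reaches past the gene. Over the 28 genes, each with the XUT of the longest overlap, the median XUT lay below its gene by 0.96 and 0.82 in log2 IP density in replicates 1 and 2. Over 1086 protein-coding genes with an antisense XUT the medians were -2.79 and -2.73. The XUT was higher than the gene in both replicates for 11 of 28 *mug* genes (39.3%) against 10.5% of all such genes, and for ncRNA genes the counts were 9 of 24 (37.5%) and 12.2%. Keeping only XUTs with 10 or more reads in each IP library raises the XUT side by construction. It left 16 *mug* pairs with medians of 0.21 and 0.76, and 408 pairs of all protein-coding genes with medians of -1.25 and -1.27. These are descriptions of levels, and the low sense signal of *mug* genes moves with them.

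The largest excess of antisense, among XUTs with 10 or more reads in each IP library, was found at genes with few reads. Opposite *mug93* (1 and 2 IP reads), *XUT0260* covers the whole gene, with 1365 of its 2102 nt opposite it. Over its whole length *XUT0260* had 124 and 242 IP reads and 35 and 36 input reads, and its log2 IP density was higher by 6.12 and 6.07. Opposite *mug68* (3 and 4 IP reads), *XUT0591* had 151 and 298 IP reads and 86 and 70 input reads, with differences of 5.60 and 6.11. Opposite *mug27* (0 and 10 IP reads), *XUT0896* covers 98.1% of the gene and had 129 and 252 IP reads and 56 and 60 input reads. The differences of 8.75 and 4.46 for *mug27* show how far a gene without a read in 1 library can move.

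The pairs of *mug126* and *mug2* had more sense signal. *XUT0748* opposite *mug126* had 39 and 74 IP reads against 8 and 22 for the gene (differences of 3.14 and 2.62). *XUT0990* opposite *mug2* had 75 and 254 against 18 and 48 (1.62 and 1.97), and it covers the start of the gene. Of its 2268 nt, 1225 nt lie opposite *mug2*. At the other end, *XUT1115* opposite *mug20* had no read in any library, and *XUT1216* opposite *mug81* had 5 and 11 IP reads against 366 and 743 for the gene.

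**Figure D4:**
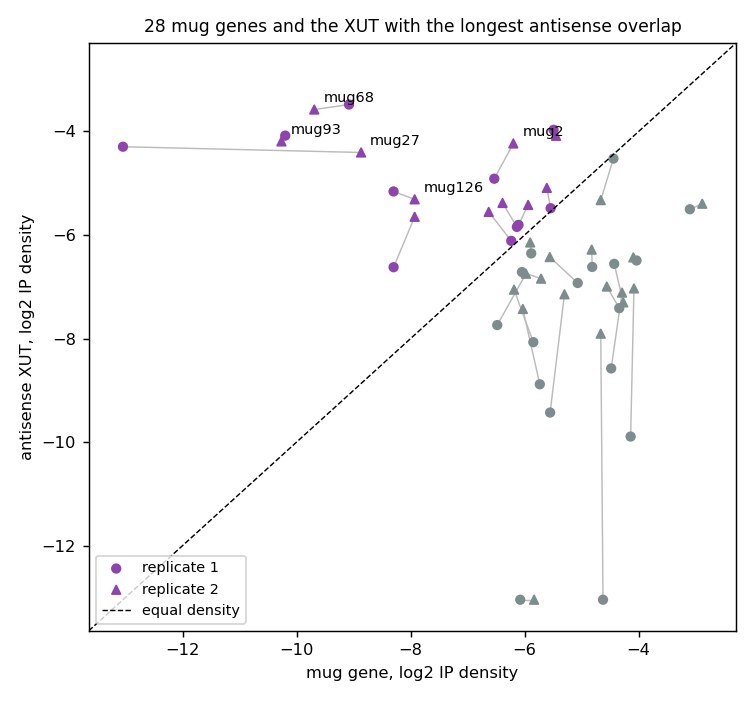
Log2 IP density of 28 *mug* genes (x axis) and of the XUT with the longest antisense overlap (y axis), in replicate 1 (circles) and replicate 2 (triangles), joined for each pair, with a dashed line where both are equal. Points above the line are purple, and the labelled genes are the 5 with the largest excess of XUT among pairs whose XUT has 10 or more reads in each IP library.

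The antisense RNAs called between IP and input are given beside the background share. Counts this small were not read as a result about the members. Of 30 XUTs opposite *mug* genes, 29 were tested, 3 were higher in the IP and 1 was lower, where the background over all XUTs is 7.45% higher and 1.58% lower. Of 28 ncRNA genes, 26 were tested and 2 were higher, where the background is 12% higher and 3.6% lower. The higher ones were *XUT0260* with the ncRNA gene of the same stretch (log2 0.81 and 0.82), *XUT1361* opposite *mug94* with 29 and 35 IP reads and 2 and 2 input reads (log2 2.38), *XUT0560* opposite *mug151* with 4 and 12 IP reads and none in the input, and *SPNCRNA.642* opposite *mug177* with 22 and 43 IP reads and 4 and 3 input reads (log2 1.61). The lower one was *XUT0097* opposite *mug160*, with 16 and 20 IP reads and 36 and 33 input reads (log2 -2.37). *mug94*, *mug151*, *mug177* and *mug160* were named after these values were seen, and the genes themselves were not called. *XUT1361* lost its call without IP replicate 1 (limma adjusted p = 0.267), *SPNCRNA.642* without IP replicate 1 (0.267) or IP replicate 2 (0.203), and *XUT0560* cannot be tested without either. For most of the others the depth was low, with a median of 13 and 26.5 IP reads for the XUTs and 6.5 and 5 input reads.

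*mug* genes had a lower median length than all protein-coding genes, 1596 against 1886 nt and a coding sequence of 897 against 1137 nt. Introns were annotated in 38 of them (36.5%, against 46.6%). They lie on chromosomes I, II and III in numbers of 52, 27 and 25. The heptamer GTAAACA, the core of the site bound by the meiotic factor Mei4, was searched on both strands from 250 nt before to 50 nt after the annotated start. It was present for 45 *mug* genes (43.3%) and 16.5% of all protein-coding genes. The motif TTCTTTGTT of the Ste11 site was present for 2 (1.92%) and 1.99%. A match of GTAAACA cannot share its AAAC with a match of TNAAAC on the same strand. The median log2 IP density of *mug* genes was -4.86 with GTAAACA and -4.79 without it.

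Other genes of meiosis and of its control, from a list chosen with earlier results of these data known, were counted in the same fit. Of 36 tested genes outside the *mug* name, 11 were higher in the IP and 3 lower, with a median log2 value of 0.72. The background over the 5043 tested protein-coding genes is 7.71% higher and 19.7% lower, with a median of -0.09. Among regulators of entry into meiosis, 5 of 8 were higher (*red1*, *mei4*, *pat1*, *ste11* and *mmi1*), and *erh1*, *mei2* and *mei3* were not called. *mei4*, the forkhead factor of mid-meiosis, had 100 and 233 IP reads and 20 and 13 input reads (log2 1.76). The product of *mmi1* directs meiotic RNAs to degradation during growth, so the list is not made only of genes kept silent then. Among genes of the chromosome axis and recombination, 2 of 15 were higher and 1 lower. *rec8*, the meiotic cohesin subunit, had 50 and 96 IP reads and 5 and 2 input reads (log2 2.88), and *mcp7* was lower (log2 -1.71). Among genes of the divisions and spores, 4 of 13 tested were higher, including *ssm4* (log2 2.55) and *spo5* (log2 2.91), and 2 were lower. *rec8* and *mei4* each have 6 hexamers in a 200-nt window, as many as any gene but *mug8*.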

How the data were processed

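The authors removed the adapter, mapped reads with Bowtie to the genome (ASM294v2, per the labels), kept unique matches and applied 1 scaling factor to each library, with a basis not given in the sources used here. For IP replicate 1 the deposited values are whole counts of reads per feature. For the others they are a signal, reads times the factor, from which whole reads were recovered for 100% of values (tolerance 0.01). The table's density is a signal per nt as deposited by the authors.

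Each library was scaled so that its median protein-coding gene equals that of IP replicate 1, before the log. The design named centring on the median, and scaling was used so that features without reads stay at 0. IP and input were compared with limma 3.58.1 with trend on log2(scaled reads + 0.483), over the 8651 of 9139 features that have reads in at least 2 libraries. Features with an adjusted p under 0.05 were called. The added 0.483 is less than 1 input read, which is worth 1.69 and 2.21 scaled reads in replicates 1 and 2. The values of features without input reads therefore depend on it. For *mug68* the log2 value ran from 0.59 to 5.67 over the alternatives. edgeR 4.0.16 on recovered reads called 17 *mug* genes higher and 10 lower of 91 tested (protein-coding background 13.2% and 21.8%), and DESeq2 1.42.0 called 7 and 5. The share that DESeq2 called over all protein-coding genes was not taken, so its counts have no background here. In simulated data of this comparison with 8557 features, limma recovered 44 of 103 features changed 2-fold and 87 of 97 changed 4-fold, with 0 false calls. Changes were put only into features with a mean of 10 or more scaled reads, and all features had the same dispersion. The simulation therefore does not show how shallower *mug* genes and antisense RNAs, or more variable features, are called.

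Densities were taken as log2(density + 0.000118). Counting intervals (95%) cover counting error only, since copied molecules cannot be separated. Input and IP of a number come from the same biological sample per the labels, and their replicate differences correlate with r = 0.153 over 4644 genes. Coordinates were checked against RefSeq ASM294v3, where 5112 of 5118 coding sequences, and those of all 104 *mug* genes, are intact.

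The members and lists were chosen with earlier results of these data known. Genes were named by a rule: up to 8 called in each direction by size, the 6 highest and 6 lowest in IP density, the 5 with the largest excess of antisense XUT (10 or more XUT reads in each IP), and 13 with a known role, of which 9 are in the table. Exceptions are marked. Alternatives were another scale, pseudocount, filter, tool, replicate block, left-out library, gene subset and overlap. Classes of genes from the paper were not used. The hexamer-rich coding stretches of other genes were not printed.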

Additional observations from a re-analysis of the deposited data

How the results depend on the processing

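Of the 9 *mug* genes called higher, *mug4*, *mug8*, *mug9* and *mug10* were called under every alternative that gave them a value, and of the 11 lower *mug28*, *mug64* and *mug106* were. The deposited scale is left out of this statement, since without scaling 99 *mug* genes were higher and 1 lower, with 47 and 0 antisense RNAs. Shares over protein-coding genes were taken only in the main comparison (7.71% higher, 19.7% lower) and by edgeR (13.2% and 21.8%). Under the other settings the counts cannot tell a move of the members from a move of all features. The same holds for antisense RNAs outside the main comparison. Other counts of higher *mug* genes were 15 with 10 or more reads in 2 libraries, 17 by edgeR and 15 with 1 read added in each library (added after seeing the data), against 9. Counts of lower genes were 3 with limma without trend and 5 by DESeq2, against 11. With the replicate block 12 were higher and 11 lower. When libraries were left out, 9 to 18 were higher and 8 to 15 lower, with 18 higher without input replicate 1 and 18 without input replicate 2. Of the antisense RNAs, 5 higher and 1 lower in the main comparison, 3 were higher with limma without trend and by DESeq2, and 3 to 14 when libraries were left out. Lower were 2 with a larger pseudocount, 10 or more reads, the replicate block, edgeR, DESeq2, the median subtracted after the log or 1 read added (the last pair of choices added after seeing the data), and 2 to 6 when libraries were left out.

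The median log2 IP density of *mug* genes minus that of all genes was -1.28 with a larger pseudocount, -1.67 as means, -1.02 with 10 or more reads, -1.21 for genes of intermediate length, -1.54 per gene and -1.27 without same-strand features. For the input these were -1.35, -1.91, -1.11, -1.40, -1.87 and -1.48, and for IP over input 0.11, 0.31, 0.085, 0.096 and 0.14, and 0.15 with the other replicate's input. Antisense XUT minus gene turned to 0.49 with 10 or more XUT reads, which leaves 16 of 28 pairs and by construction raises the XUT side. Under that filter the value over all protein-coding genes was -1.26 (408 pairs). For the other changes the cause was not tested. Over all settings but the deposited scale, the genes named by the rule lost a call in 20 cases and gained one in 16. That count leaves out *mug86*, *mug121*, *mug157* and *mug89*, which lost their calls under 4, 3, 3 and 8 of 14 alternatives. No called gene changed direction. Depth limits what the antisense RNAs and the 12 genes under 10 IP reads can show.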

Other observations

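Of the 56 genes with 4 or more hexamers in 200 nt, 20 were called higher in the IP (35.7%, against 7.65% of the 4795 tested genes with 200 nt of unbroken coding sequence), 6 of them *mug* genes. Of the other 49 genes, 14 were higher, 8 lower and 27 not called. *mcp6* had 19 and 43 IP reads and none in the input, *moa1* had 3 and 5 and none, *bqt1* had 24 and 44 against 2 and 2, and *mek1*, a meiotic checkpoint kinase gene, had 24 and 57 against 2 and 3. *dic1* had 17 and 61 against 2 and 3, and *meu26* had 8 and 26 against 1 and 1. *trk2*, *chs1*, *clr1* and *yps1* were higher with log2 values between 0.44 and 0.88. Others of the 56 were not higher. *meu43*, *spo6*, *meu13*, *rec25* and *mcp3* were not called. *trs120*, with 5 copies, had a log2 value of -0.04 on 362 and 727 IP reads, and *mcp7*, also with 5, was lower by 1.71 on 118 and 302 IP reads and 232 and 216 input reads. These genes were picked after their values were seen.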
